A study of Mus musculus with 3 samples.

Results

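The Hippo pathway and its Tead transcription factors were examined in integrin alpha6-positive, Sca1-negative cells sorted from mouse back skin, through 10 genes taken by symbol from the deposited table of 44548 genes. The 10 genes were the coactivators Yap1 and Wwtr1 (whose protein is known as Taz), the DNA-binding factors Tead1, Tead2, Tead3 and Tead4, the kinases Lats1 and Lats2, and the scaffold proteins Amotl2 and Ajuba. All were found, 1 entry each. Polyadenylated RNA stemmed from wild-type animals at 56 days of age, when the hair cycle rests for the second time, and 3 libraries of 1 group, replicates 1 to 3, were sequenced. The labels speak of biological duplicates although 3 libraries exist. Which libraries stem from separate mice was not stated, so every spread given may be partly technical. The protocol names an antibody to integrin alpha6 only. No treated or mutant group was among the samples, and the strain and number of mice per library were not stated.

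In the Hippo pathway, the kinases Stk3 and Stk4 activate Lats1 and Lats2, which phosphorylate Yap1 and Wwtr1 and keep them out of the nucleus. Coactivators that escape this phosphorylation enter the nucleus and bind Tead factors, since they cannot bind DNA by themselves. In skin, Yap1 activity is known for supporting growth of basal keratinocytes, and alpha-catenin and Ajuba at cell junctions are known to bear on the pathway. Most of this control acts on proteins, so the RNA levels below describe how much transcript of each part was present and not how active the pathway was.

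The libraries held 29283936 to 39198620 counts. Levels are given as TPM, which corrects counts for gene length and library size and can be compared between genes. Itga6 had 102 to 120 TPM and Ly6a, which encodes Sca1, 3.16 to 11.6 TPM. All 8 hair follicle stem cell markers and all 6 basal keratinocyte markers were detected, that is had a mean of at least 1 TPM. The 5 endothelial markers summed to 0.239 to 0.373 TPM, with Cdh5, Cldn5 and Emcn at 0 counts in every library. The 7 fibroblast markers summed to 18.0 to 45.3 TPM, nearly all of it Col1a1 and Col1a2, with Lum and Dpt at 0 counts. Immune markers summed to 10.8 to 19.9 TPM and melanocyte markers to 35.7 to 59.3 TPM. The 8 suprabasal keratinocyte markers, genes of differentiating cells, were all detected and summed to 3393, 4543 and 7290 TPM in replicates 1, 2 and 3. Replicate 1 stood apart from the others in many genes, so the level of each member is shown per library below. Other genes are often given by mean and SD alone.

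All 10 genes were detected, beside 54.9% of 21410 protein-coding genes, and their median of 27.2 TPM lay above the median of 17.5 TPM over the 11760 protein-coding genes detected. By mean TPM the order was Ajuba, Yap1, Tead3, Amotl2, Wwtr1, Lats2, Tead4, Lats1, Tead2 and Tead1. Ajuba and Yap1 each stood clear of the next gene, their lowest library exceeding the highest library of the gene after them. Ranges overlapped between Tead3 and Amotl2, between Amotl2 and Wwtr1, between Tead4 and Lats1, and between Lats1 and Tead2. Read within each library, Tead3 exceeded Amotl2 and Lats1 exceeded Tead2 every time. The order of Amotl2 and Wwtr1 and that of Tead4 and Lats1 changed between libraries, so it was not resolved. Between Lats2 and Tead4 the gap was tiny, at 20.28 TPM for the lowest Lats2 library against 20.27 TPM for the highest Tead4 library.

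**Figure D1:**
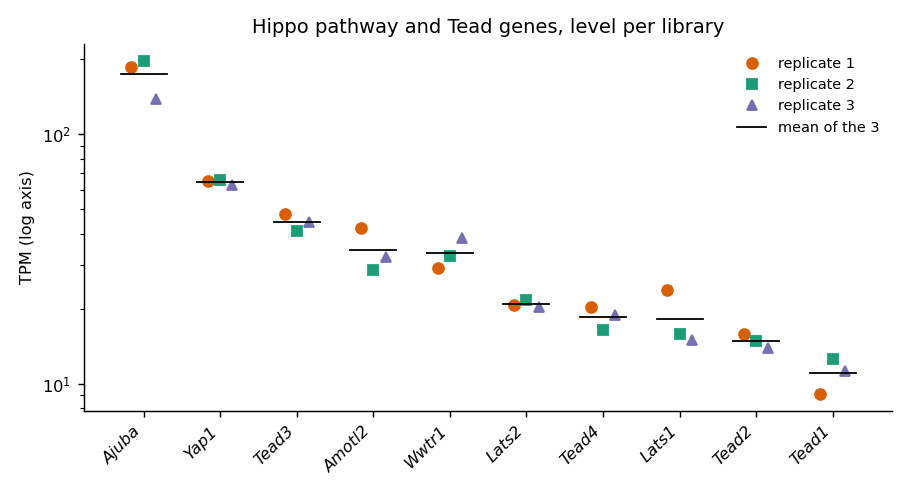
TPM (log axis) of each of the 10 genes in replicates 1, 2 and 3 (points), with the mean as a bar, ordered by mean. Ajuba lies between 138 and 198 TPM, above all others, and the 4 Tead genes lie between 9.08 and 48.1 TPM.

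Amotl2 and Lats2 are known targets of Yap1 and Tead factors, and the members' promoters were searched for the core Tead motif, GGAATG, on both strands. RefSeq windows on GRCm38.p6, from 250 bases before to 50 bases after an annotated start, were at hand for 8 members with 12 starts. The table held none for Tead1 and Tead4. The motif occurred for 6 of the 8 members, namely Yap1, Wwtr1, Tead3, Lats2, Amotl2 and Ajuba, and in 8 of their 12 windows. Tead2 and Lats1 had no match in these windows. Of all 32851 promoter windows, 14.7% held the motif, as did at least 1 window of 16.6% of 27025 genes. Genes with several starts have more chances to hold it, and among genes with 1 window the share was 14.6%. A match is a run of letters, and binding was not measured.

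The promoters of Yap1, Wwtr1 and Ajuba, where the matched stretch holds no annotated exon in GENCODE M21, are shown over the 220 bases before the start, on the gene's strand, with the motif in capitals on either strand. The match lay 141 bases before the start of Yap1 (chr9:8004597-8004816, minus strand) and 136 bases before the first start of Wwtr1 (chr3:57575911-57576130, minus strand). Ajuba (chr14:54577662-54577881, minus strand) had a pair of matches, 186 and 164 bases before its start, both on the opposite strand.
Yap1: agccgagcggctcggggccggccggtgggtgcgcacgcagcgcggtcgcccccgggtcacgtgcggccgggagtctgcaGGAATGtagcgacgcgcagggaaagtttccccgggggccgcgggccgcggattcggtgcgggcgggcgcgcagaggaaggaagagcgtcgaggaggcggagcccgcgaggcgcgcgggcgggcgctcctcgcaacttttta
Wwtr1: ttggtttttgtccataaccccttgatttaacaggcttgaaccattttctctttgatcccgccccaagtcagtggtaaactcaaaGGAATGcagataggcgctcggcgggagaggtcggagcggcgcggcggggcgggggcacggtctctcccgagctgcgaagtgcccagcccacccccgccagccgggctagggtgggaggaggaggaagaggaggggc
Ajuba: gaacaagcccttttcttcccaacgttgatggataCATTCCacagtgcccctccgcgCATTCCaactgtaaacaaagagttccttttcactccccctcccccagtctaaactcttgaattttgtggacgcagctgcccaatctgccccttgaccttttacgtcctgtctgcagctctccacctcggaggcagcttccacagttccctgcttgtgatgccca

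For the other 3 members, and for Cyr61 as the most abundant target gene described below, 30 bases around a match are shown, again on the gene's strand with the motif in capitals. They were chosen because Amotl2, Lats2 and Cyr61 are established Yap targets and Tead3 is the most abundant Tead gene here. The Amotl2 match lay 65 bases before its start (chr9:102717727-102717756, plus strand) and the Cyr61 match 103 bases before (chr3:145650071-145650100, minus strand). Tead3 held its first match 182 bases before its first start (chr17:28350970-28350999, minus strand), with 3 more at its second start. The Lats2 match lay just inside the transcript (chr14:57746102-57746131, minus strand). The Amotl2 and Lats2 matches overlap exons in GENCODE M21.
Amotl2: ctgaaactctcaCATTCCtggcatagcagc
Cyr61: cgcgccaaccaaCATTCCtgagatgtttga
Tead3: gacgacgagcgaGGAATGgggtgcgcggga
Lats2: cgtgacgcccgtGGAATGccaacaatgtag

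**Figure D2:**
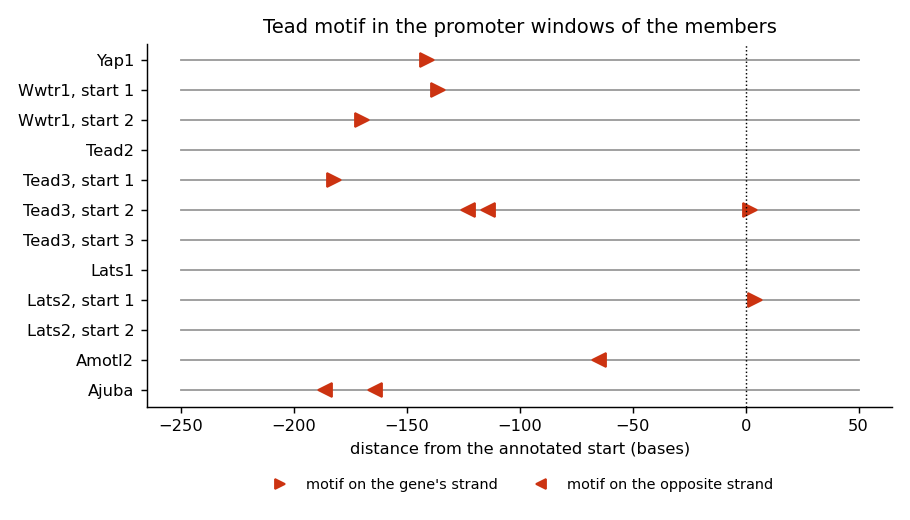
Position of the motif (triangles, pointing right on the gene's strand and left on the opposite strand) in the 12 promoter windows of 8 members (lines), against the distance from the annotated start in bases. Matches lie from 186 bases before a start to just past it, the same Wwtr1 match appears in both its windows, and Tead2 and Lats1 have none.

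Of the coactivators, Yap1 was the more abundant and the steadier. Yap1 (ENSMUSG00000053110, GRCm38 chromosome 9, 7931999 to 8004596, minus strand) measured 65.2, 65.7 and 62.5 TPM, in the order of replicates 1 to 3 used throughout, a mean of 64.5 ± 1.72 TPM (SD, n = 3). The 3 libraries lay within 1.05-fold of each other, from 6508, 8330 and 8927 counts, and placed Yap1 at the percentile of 85.7 among detected genes. Wwtr1 (ENSMUSG00000027803, chromosome 3, 57455649 to 57575910, minus strand) had 29.1, 32.6 and 38.5 TPM, a mean of 33.4 ± 4.76 TPM (SD, n = 3). Its lowest library was replicate 1 and its highest replicate 3, a 1.32-fold span. Every Yap1 value exceeded every Wwtr1 value. Yap1 made up 69.2%, 66.8% and 61.9% of the summed TPM of both genes, a mean of 65.96% ± 3.71. The sum itself was 97.9 ± 3.38 TPM (SD, n = 3). The log2 difference of Yap1 from Wwtr1 was 0.94 ± 0.23 on the log2(TPM + 1) scale, with Yap1 higher in 3 of 3 libraries (two-sided exact permutation of signs, p = 0.25; 3 libraries allow no smaller value).

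Among the DNA-binding partners, all 4 Tead genes were present, and Tead3 supplied the largest share in each library. Tead3 (ENSMUSG00000002249, chromosome 17, 28331671 to 28350817, minus strand) had 48.1, 40.9 and 44.7 TPM, a mean of 44.5 ± 3.61 TPM (SD, n = 3). Tead4 (ENSMUSG00000030353, chromosome 6, 128224288 to 128300823, minus strand) had 20.3, 16.4 and 18.8 TPM, a mean of 18.5 ± 1.95 TPM. The lowest Tead3 library was above the highest library of each other Tead gene. Tead2 (ENSMUSG00000030796, chromosome 7, 45215753 to 45233644, plus strand) had 15.8, 14.8 and 13.9 TPM, a mean of 14.9 ± 0.979 TPM. Tead1 (ENSMUSG00000055320, chromosome 7, 112679318 to 112906807, plus strand) had 9.08, 12.6 and 11.3 TPM, a mean of 10.99 ± 1.79 TPM, and was the lowest of the 10 genes. By TPM, replicate 1 was the highest library for Tead2, Tead3 and Tead4 and the lowest for Tead1. Being highest there depends on library scaling, since after rescaling 2 of the 10 genes and not 5 were. Tead4 and Tead1 did not overlap, nor did Tead4 and Tead2, although the margin between the latter was narrow.

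Of the summed TPM of the 4 genes, Tead3 took 51.5%, 48.2% and 50.4%, a mean of 50.1% ± 1.68 (SD, n = 3). Tead4 took 20.8% ± 1.24, Tead2 16.7% ± 0.936 and Tead1 12.5% ± 2.59. The sum was 88.9 ± 4.30 TPM, close to the 97.9 ± 3.38 TPM of the coactivators. On the log2(TPM + 1) scale, the steadiest difference was that of Tead3 from Tead4, at 1.21, 1.27 and 1.21 (SD 0.03), and the least steady that of Tead4 from Tead1, at 1.08, 0.35 and 0.69 (SD 0.36). In all 6 Tead pairs the order of the means held in 3 of 3 libraries. Each of those pairs gave a two-sided exact sign-flip p of 0.25, the smallest that 3 libraries allow, and 0.286 after Benjamini-Hochberg adjustment over the 8 paralog pairs compared. The order of the lower 3 depends on dividing by gene length: Tead1 has the longest gene model of the family, 13570 bases, and the most counts of those 3 genes, 1328 to 2363.

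**Figure D3:**
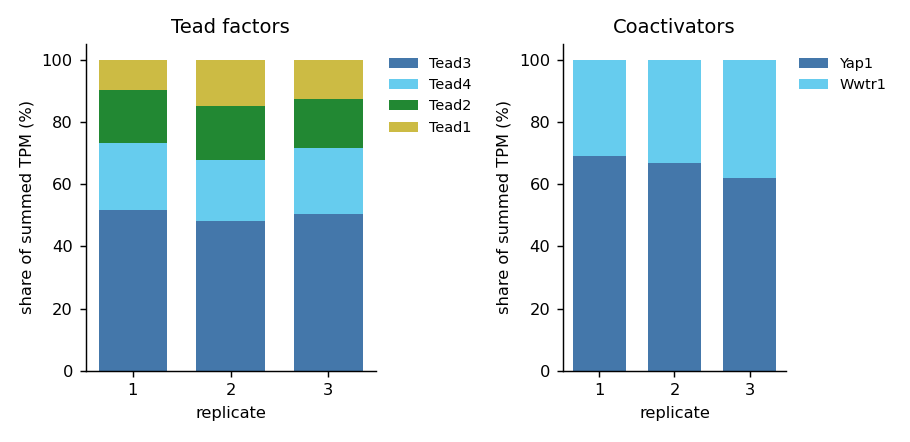
Share (percent) of each gene in the summed TPM of the 4 Tead genes (left) and of Yap1 and Wwtr1 (right), stacked for each replicate. Tead3 holds between 48.2% and 51.5% and Yap1 between 61.9% and 69.2% in the 3 libraries.

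The Lats kinases, which inhibit Yap1 and Wwtr1, were present at similar levels. Lats2 (ENSMUSG00000021959, chromosome 14, 57689662 to 57758388, minus strand) had 20.8, 21.7 and 20.3 TPM, a mean of 20.9 ± 0.707 TPM (SD, n = 3). Lats1 (ENSMUSG00000040021, chromosome 10, 7681214 to 7716460, plus strand) had 23.7, 15.8 and 15.0 TPM, a mean of 18.1 ± 4.83 TPM. Replicate 1 was above both others for Lats1, and in that library alone Lats1 exceeded Lats2. The log2 difference of Lats2 from Lats1 was -0.18, 0.44 and 0.41, a mean of 0.22 ± 0.35 (two-sided exact sign-flip p = 0.5), so it was smaller than its spread. Lats1 had the widest span of the 10 genes, 1.58-fold, and Lats2 one of the narrowest, 1.07-fold. In GENCODE M21 the gene Gm49361 overlaps Lats2 on the same strand, and how shared reads were counted was not stated.

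Of the scaffold proteins, Ajuba was the most abundant of the 10 genes. Ajuba encodes a LIM protein of adherens junctions that binds Lats kinases. It (ENSMUSG00000022178, chromosome 14, 54567472 to 54577558, minus strand) had 187, 198 and 138 TPM, a mean of 174 ± 31.7 TPM (SD, n = 3). Replicate 3 was the lowest, and the mean percentile among detected genes was 94.96. Amotl2 encodes a protein of the angiomotin family, which binds Yap1 and holds it at junctions, and is itself a target of Yap1. Amotl2 (ENSMUSG00000032531, chromosome 9, 102716672 to 102733418, plus strand) had 42.1, 28.5 and 32.2 TPM, a mean of 34.3 ± 7.03 TPM. Replicate 1 was the highest. Its relatives Amotl1 and Amot had 28.4 ± 2.24 and 1.84 ± 0.553 TPM. The related LIM genes Limd1 and Wtip had 50.2 ± 5.67 and 42.5 ± 4.92 TPM.

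In TPM as deposited, the median span of the 10 genes from lowest to highest library was 1.28-fold. Over 13177 detected genes with counts in every library it was 1.50-fold. Lats1 lay above that value, at 1.58-fold, and Amotl2 and Ajuba near it, at 1.48-fold and 1.43-fold. The span includes counting error, which is smaller for well-counted genes. For each member that error was 1.12% to 3.37% of the mean count, while the SD over libraries was 2.67% to 26.6% of the mean TPM. Of the 10 genes, 5 were highest in replicate 1, beside 59.6% of 13663 detected genes. After rescaling the libraries to a common 75th percentile, or with TMM factors on the counts, 2 of 10 were highest there. The share of all detected genes is known before rescaling only, so these 2 have no background beside them. With 3 libraries of 1 group, likeness of pattern rests on level: the protein-coding genes nearest to Yap1 over the 3 libraries, by Euclidean distance in log2(TPM + 1), were Ppp1r11 (0.0193), Tsnax (0.0382) and Pithd1 (0.0392). Those nearest to Wwtr1 were Kctd5 (0.0569), Cyb561a3 (0.0637) and Mrpl16 (0.0932).

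Genes upstream of the members were taken from a list of 19 kinases and adaptors, which includes Lats1 and Lats2. All 19 were detected, with a median of 18.8 TPM. Mob1a, an activating subunit of the Lats kinases, was the highest with 122 ± 3.72 TPM (SD, n = 3), and its relative Mob1b had 5.91 ± 0.710 TPM. Mink1, a kinase that can act beside Stk3 and Stk4, followed with 68.1 ± 13.1 TPM. Sav1, the adaptor of Stk3 and Stk4, had 57.7 ± 9.89 TPM, while Stk4 had 20.0 ± 1.72 and Stk3 12.7 ± 1.35 TPM. Nf2, which encodes merlin and brings Lats kinases to the membrane, had 38.4 ± 2.54 TPM. Map4k2 had 31.8, 12.3 and 12.4 TPM, and its mean of 18.8 TPM was 12.3 TPM without replicate 1.

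Among 20 genes of junctions, polarity and scaffolds, which include Ajuba and Amotl2, 17 were detected, with a list median of 42.1 TPM. Ctnna1, which encodes alpha-catenin, had 394 ± 7.96 TPM and was the highest (SD, n = 3). The large cadherins Fat2 and Fat1 had 96.7 ± 22.4 and 63.8 ± 7.68 TPM. Below the detection limit, Fat4 had 0.659 ± 0.254 TPM and Fat3 0.0717 ± 0.0398 TPM, and Dchs1, a ligand of Fat4, had 0.118 to 0.436 TPM. Phosphorylated Yap1 is held in the cytoplasm by the protein family that Sfn and the Ywha genes encode. All 7 of those genes were detected, led by Sfn with 1209 ± 279 TPM, Ywhae with 428 ± 14.03 TPM and Ywhaz with 294 ± 5.62 TPM. Of the Vgll genes, whose proteins compete with Yap1 for Tead factors, Vgll4 had 39.3, 58.0 and 34.6 TPM, and Vgll3 had 7.66 ± 1.52 TPM. No count of Vgll1 or Vgll2 was found in any library, so levels of up to 0.113 and 0.190 TPM cannot be told from 0.

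The output of the pathway was described with 22 established Yap and Taz target genes, of which Amotl2 and Lats2 are members. Of the 22, 19 were detected. Cyr61 and Ctgf, which encode secreted matrix-associated proteins and are the best known Yap targets, were the highest. Cyr61 had 2582, 1100 and 691 TPM in replicates 1, 2 and 3, and Ctgf had 1793, 686 and 776 TPM. Both were highest in replicate 1, with spans of 3.74-fold and 2.61-fold, and without that library the Cyr61 mean of 1458 TPM became 895 TPM. Igfbp3 had 164 ± 44.2, Crim1 147 ± 26.7, Axl 144 ± 9.53 and Nt5e 126 ± 10.2 TPM (SD, n = 3). Unlike Cyr61 and Ctgf, Igfbp3, Crim1 and Axl were lowest in replicate 1. F3 had 9.66, 8.67 and 24.5 TPM, and its mean of 14.3 TPM was 9.16 TPM without replicate 3.

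At the low end of the target list, Ankrd1 and Foxf2 had no count in any library (upper limits of 0.158 and 0.118 TPM), and Ccdc80 had 0.306 ± 0.214 TPM. Of the 19 target genes detected, 8 peaked in replicate 1, 7 in replicate 2 and the other 4 in replicate 3, beside 59.6%, 20.0% and 20.4% of all detected genes. The 10 genes of the response to tissue dissociation, such as Fos and Jun, summed to 25038, 16160 and 11530 TPM in replicates 1, 2 and 3. Cyr61 and Ctgf are also known to be induced quickly by stress, and the part of dissociation in their level was not tested. Of the 13 target genes that have a promoter window and are no members, 5 held the Tead motif, namely Cyr61, Ankrd1, Axl, Crim1 and Ptpn14.

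**Figure D4:**
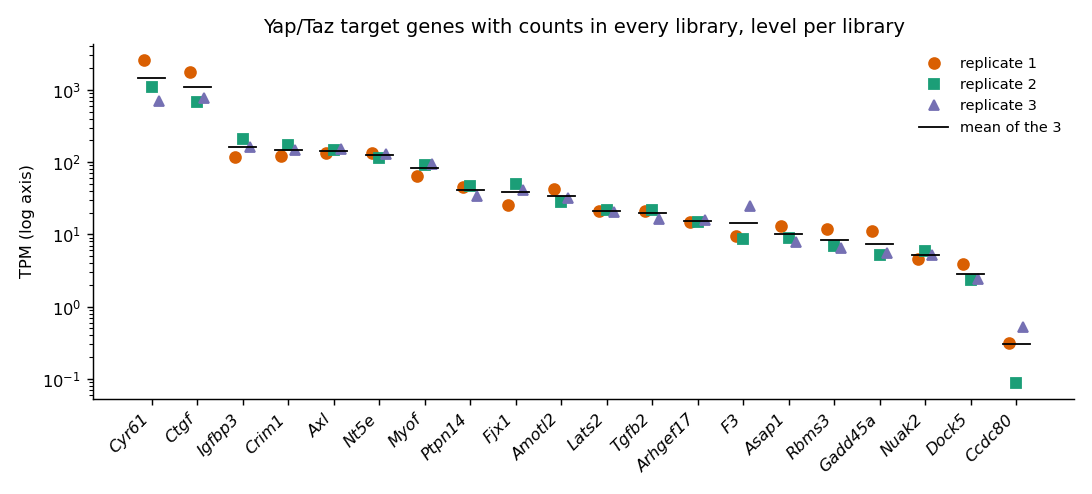
TPM (log axis) of the 20 target genes with counts in every library, for replicates 1, 2 and 3 (points) with the mean as a bar, ordered by mean. Cyr61 reaches 2582 TPM and Ctgf 1793 TPM in replicate 1, while Axl, Nt5e, Lats2 and Arhgef17 nearly coincide across libraries.

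The authors also deposited a log2 fold change and an adjusted p-value per gene. From the names of columns that match no sample here, the comparison was taken to be with libraries of the bulge, the stem cell niche of the follicle, although the labels do not state it. Those libraries were not analysed here. A positive value was taken as higher in the alpha6-positive, Sca1-negative libraries, because all 2552 genes with 0 counts in the 3 libraries and a fold change had a negative one in the authors' deposited table. No standard error accompanied the fold changes. In bulk samples, fewer cells of a type and less RNA per cell cannot be told apart.

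An adjusted p-value under 0.05 was held by 7 of the 10 genes in the authors' deposited table, 4 higher and 3 lower. The share called was 55.5% of all 20264 genes with an adjusted p-value (23.6% higher, 31.9% lower) and 60.8% of the 13505 of them that were detected (35.1% higher, 25.6% lower), so the count of members lies near the background. The same 7 held an adjusted p-value under 0.01, beside 46.1% of all genes tested, and 6 had a fold of at least 2 as well as 0.05, beside 46.3%, all by the authors' deposited table. Directions were mixed within the Tead family. Tead2 was higher, with a log2 fold change of 2.60 (adjusted p-value 1.41e-15 in the authors' deposited table), and so was Tead3, with 1.79 (1.83e-15). Tead1 was lower by the authors' deposited table, with -1.44 (adjusted p-value 1.90e-07), and Tead4 was not called, with -0.11 (0.705). The fold changes of Tead2 and Tead1 were thus 4.04 apart on the log2 scale, a difference that was not tested.

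Neither coactivator was called by the authors' deposited table, with log2 fold changes of 0.32 for Yap1 (adjusted p-value 0.167) and -0.37 for Wwtr1 (0.196). Both Lats kinases were lower in the authors' deposited table, Lats1 by a log2 fold change of -1.94 (adjusted p-value 1.71e-20) and Lats2 by -0.96 (1.87e-05). Both scaffold proteins were higher in the authors' deposited table, Ajuba by 1.73 (adjusted p-value 3.49e-09) and Amotl2 by 1.22 (2.48e-06). Amotl2 and Lats2, both of them Yap targets, therefore had opposite signs. The median over the 10 genes was 0.10, between -0.36 over all genes tested and 0.25 over those detected.

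Base composition moved with these fold changes across the whole table. Over 13484 detected genes with a fold change, Spearman's rho with the GC content of the longest GENCODE M21 transcript was 0.54, and with gene length -0.39, as a description across genes of the same libraries. In bins of GC content, the median of the authors' deposited table ran from -1.03 for genes of at most 40% GC through 1.36 for genes of 55 to 60% GC to 1.79 for genes above 60% GC. The 4 members called higher have 56.7% to 58.3% GC, and Lats1 and Tead1, called lower, have 43.0% and 46.5%, while Lats2, also called lower, has 52.2%. Less the median of its own GC bin, Amotl2 turned from 1.22 to -0.13, while Ajuba went from 1.73 to 0.38, Tead3 from 1.79 to 0.43 and Tead2 from 2.60 to 1.25. The members called lower stayed below their GC bins, Tead1 by -1.33, Lats1 by -1.26 and Lats2 by -1.62. All of them have long gene models, of 13570, 7300 and 7303 bases. Detected genes of 6576 bases or more had a median of -0.85, beside -1.44 for Tead1, -1.94 for Lats1 and -0.96 for Lats2. Yap1, with 9257 bases, falls there too and was not called. The members called higher have 3503 to 6289 bases. What part base composition and gene length have in the calls was not tested.

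Tead2, Tead3 and Tead4 offer a comparison at like composition. They have 57.9%, 58.1% and 58.1% GC, while the authors' deposited table gave log2 fold changes of 2.60, 1.79 and -0.11. Tead4 lay 1.47 under the median of its bin (a difference of -1.47), and Tead2 lay 1.25 above it. Yap1 and Wwtr1, neither of them called, came out above their bins with 0.43 and 0.30, which for Wwtr1 is a change of sign from -0.37 in the authors' deposited table.

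**Figure D5:**
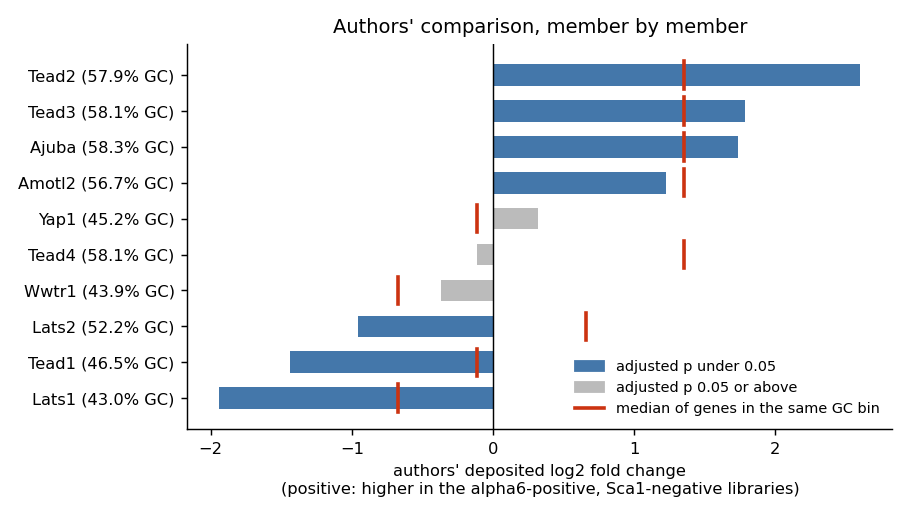
Log2 fold change of each member in the authors' deposited table (bars; blue where the adjusted p-value is under 0.05, grey otherwise), with the median of detected genes in the same GC bin (red marks) and the GC content in the labels. Tead2, Tead3 and Tead4 share a bin median of 1.36 and have fold changes of 2.60, 1.79 and -0.11.

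Outside the members, the 5 pathway lists held 65 further genes, of which 57 were detected and 62 had an adjusted p-value in the authors' deposited table. Of these 62, 21 were called higher and 18 lower, with a median log2 fold change of 0.22. The background was 23.6% higher and 31.9% lower over all genes tested, and 35.1% and 25.6% over those detected. The count for the 62 genes lies near it. Among the 19 kinases and adaptors, Lats1 and Lats2 included, 5 were higher and 9 lower in the authors' deposited table, with a median of -0.54. All 19 were detected, so the like background is 35.1% higher and 25.6% lower, with a median of 0.25. The lowest were Taok1 with -2.58 and Mob1b with -2.07, and the highest Map4k1 with 2.16 and Mink1 with 1.58, by the authors' deposited table. Sav1 was called higher in the authors' deposited table, with 0.91.

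Among the 20 junction, polarity and scaffold genes, 9 were higher and 6 lower in the authors' deposited table, with a median of 0.30. Over all detected genes, 35.1% were higher and 25.6% lower, with a median of 0.25. The apical and basolateral polarity genes Crb3 and Scrib had the largest positive values, 2.54 and 2.37, and Fat1 and Amot the largest negative ones, -1.54 and -1.45, by the authors' deposited table. Crb3 has 57.8% and Scrib 61.2% GC. Within the Sfn and Ywha family, Sfn had 3.13 and Ywhaz -2.38 in the authors' deposited table. Of the target genes, 21 had an adjusted p-value in the authors' deposited table, 6 higher and 5 lower, with a median of 0.30. The share called in either direction was 60.8% over detected genes and 55.5% over all genes tested. Fjx1 with 1.74 and F3 with 1.50 led the higher ones, and Rbms3 with -2.36 and Dock5 with -1.80 the lower ones, by the authors' deposited table. Less the median of its GC bin, Fjx1 turned to -0.05, while F3 had 1.61, Rbms3 -1.68 and Dock5 -1.69. Cyr61 had 0.92 (adjusted p-value 0.011) and Ctgf 0.25 (0.501) in the authors' deposited table.

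Markers of cell state moved in the same comparison, in which 35.1% of detected genes were called higher and 25.6% lower. Of the suprabasal markers, 7 of 8 in the authors' deposited table were higher and none lower, with a median log2 fold change of 2.85. Of the 10 dissociation response genes, 7 were higher and 1 lower, with a median of 1.46, and Junb (4.79) and Ier2 (3.93) were the highest in the authors' deposited table. Of the 6 basal keratinocyte markers, 4 were higher and 1 lower there, with a median of 0.72 in the authors' deposited table. The 8 hair follicle stem cell markers went both ways, with 2 higher, 3 lower and a median of -0.05 in the authors' deposited table. Krt15 and Cd34 were the higher ones, and Lgr5, Sox9 and Nfatc1 the lower ones. The part of these markers in the fold changes of the members and of Cyr61 was not tested. Of the endothelial markers, 2 were tested and neither was called, and of 5 fibroblast markers tested 1 was lower, Col3a1. It rested on 1 to 7 counts per library. Col1a1 and Col1a2, the fibroblast markers that were detected, had 0.73 and 0.61 in the authors' deposited table and were not called.

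H3K27me3, a histone mark of gene repression, was deposited as a whole number per gene whose unit was not stated. It was 0 for all 10 members in the authors' deposited table. A value above 0 was held by 11.2% of protein-coding genes and by 3.52% of those detected, so 0 is the common value at such levels. Of the 65 other pathway genes, 6 exceeded 0 by the authors' deposited table: Fat4 with 7112, Dchs1 with 10893, Vgll1 with 5277, Vgll2 with 15290, Foxf2 with 45438 and F3 with 4389. Of these 6, F3, at 14.3 ± 8.87 TPM (SD, n = 3), was the single gene detected.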

How the data were processed

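RNA was measured in 3 libraries of 1 group. The authors deposited whole-number counts per gene and TPM, per the file headers, with a gene length in bases and an H3K27me3 value of unstated unit. A log2 fold change, an adjusted p-value and a score per gene, deposited by the authors too, come without the name of the comparison or tool. FastQC, TopHat2, SAMtools, DESeq2 and DESeq and the builds mm10 and GRCm38 are named in the submitters' processing notes, without roles. The annotation, counting tool and strand setting are not given in the sources used here. Without strand, reads of genes overlapping on opposite strands cannot be told apart: Cd37 (1 to 4 counts) overlaps Tead2, and Gm20416 (0 to 7 counts) overlaps Yap1.

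Another 6 per-sample columns match no sample and were not used. Of 44625 entries, 1 per symbol was kept, the highest by mean TPM. Counts and lengths gave the deposited TPM back to within 4.72e-06. The members and lists were chosen with earlier results of these data known. Named genes were the members, the 3 highest of each list, genes with 0 counts, the 2 largest called fold changes in each direction, and any target gene. Stk3, Stk4, Nf2, Map4k2, Vgll3, Amotl1, Limd1, Wtip, Fat3, Fat4 and Dchs1 were named for their role after their values were seen. The GC comparison was added after seeing the data.

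Paralogs were compared within libraries on log2(TPM + 1) by exact sign-flip permutation. A count of 0 allows up to 3 counts, which covers counting error only. Python 3.11.15, pandas 2.3.3, scipy 1.17.1 and edgeR 4.0.16 (TMM factors only) were used, and the routines were tested on simulated data. Alternatives were the pseudocount, the detection limit, the scaling, division by length, the adjusted p limit, the background and leaving out each library.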

Additional observations from a re-analysis of the deposited data

How the results depend on the processing

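All 10 members stayed detected at a limit of 0.5 or 5 TPM and without any 1 library. Leaving out each library in turn moved the median member level of 27.2 TPM to between 25.7 and 27.2. The log2 difference of Yap1 from Wwtr1 ranged from 0.84 to 1.06 and that of Lats2 from Lats1 from 0.12 to 0.42. With counts scaled by library but not divided by length, the order of 3 Tead pairs reversed: Tead4 minus Tead2 became -0.10, Tead4 minus Tead1 -1.13 and Tead2 minus Tead1 -1.03 on the log2 scale. These reversals follow from leaving out gene length. The number of members highest in replicate 1 fell from 5 to 2 under both rescalings. The median member percentile of 66.4 among detected genes was 89.7 among all genes. At an adjusted p-value under 0.01 the authors' deposited table called 7 members, and with a fold of at least 2 it called 6. Less the median of the GC bin, an alternative chosen after seeing the data, 2 members changed sign, Amotl2 from 1.22 to -0.13 and Wwtr1 from -0.37 to 0.30 in the authors' deposited table. Ajuba went from 1.73 to 0.38, Tead3 from 1.79 to 0.43, Tead2 from 2.60 to 1.25 and Tead4 from -0.11 to -1.47. The cause was not tested. Centred on the median of detected genes, 5 members stayed above 0, as without centring. Of the 22 target genes, 18 were detected at 5 TPM, and 17 of 20 without Amotl2 and Lats2 at 1 TPM. No paired analysis was possible because the libraries form 1 group, so there were no groups whose replicates could be matched; the paralog comparisons pair genes within a library. Depth limits only the genes near 0, since each member rested on at least 786 counts in every library.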
